A study of Mus musculus with 2 samples.

Results

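Of 1728 lincRNA exon regions that the array probed on both strands, 241 (13.9%) were silent in the control liver, and 27 of these (11.2%) were detected on a strand after ischemia/reperfusion (I/R). By probe the share was 5.81%, close to the 6.27% of all control-silent spots that gained detection, so the count is near the background of the array. The silent regions were chosen by measured values. The probes named MM9LINCRNAEXON were paired by their number, and a pair was kept when neither strand probe was flagged as well above background on the control array. A further region had a probe for a single strand and was left out. The 241 regions hold 482 probes of 3457 lincRNA exon probes and 61194 non-control spots in all. Low control signals are therefore part of the choice, and a rise from them is given as a description without a test.

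The study compared liver RNA of male C57BL/6J mice, 10 to 12 weeks old, with and without hepatic I/R. In the I/R model, blood supply to 70% of the liver was clamped for 1 hour and then restored for 6 hours. The I/R sample mixed 3 livers, so the mice cannot be told apart in it, and the number of livers behind the control sample, which the study calls sham, is not given in the sources used here. Each sample was hybridized to 1 single-colour (Cy3) Arraystar Mouse LncRNA v2.0 array, so no value has a replicate, and the 2 arrays lay on the same slide and shared a scan time. Labelled cRNA was made by random priming along the whole transcript after removal of rRNA, from whole tissue, in which fewer cells of a type and less RNA per cell cannot be told apart. Of 52 marker genes listed for hepatocytes, other liver cells and the injury response, 0 are named in the files, so the labelled tissue could not be checked against its markers.

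Long intergenic noncoding RNAs (lincRNAs) are transcribed from DNA between protein-coding genes, and many are spliced and polyadenylated like mRNAs. They are known for low levels and for expression restricted to particular tissues. Some lincRNAs act on chromatin or on the stability of other RNAs, but no function of the exons described here is given in the files. Because the strand of such a transcript is often unknown when an array is designed, a probe for each strand was placed on it, named + or -. The names refer to the mm9 build. The coordinates and the probe sequences of these exons were not analysed here, so no position, neighbouring gene or sequence is given.

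Well above background is a flag that the scanner software sets from the noise of each array, and it acted as a fixed limit on the processed signal, which is the spot intensity after background subtraction. Among non-control spots, the lowest signal with the flag was 12.7 on the control array and 17.3 on the I/R array, so a probe needed a 1.36-fold higher signal to be detected on the I/R array. Signals not above background were set to a floor, 2.53 on the control array and 3.44 on the I/R array. The median non-control signal was 39.6 on the control array and 39.3 on the I/R array. The silent regions thus lie below the middle of the signal range, where spot noise is a large part of the value. None of the 482 probes was saturated or flagged as an outlier, and each was present as 1 spot.

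Silence in the control liver covered a range of signals. On the control array 237 of the 482 probes were at the floor, and the other 245 were flagged as positive and significant over background, a weaker flag than well above background. By region, 56 had neither strand positive, 125 had a single positive strand and 60 had both strands positive. Just inside the limit, MM9LINCRNAEXON11751- had a control signal of 12.6, MM9LINCRNAEXON10677+ of 12.5 and MM9LINCRNAEXON11984- of 12.5, and their signals on the I/R array were 6.78, 3.44 and 15.0. Just outside it, MM9LINCRNAEXON10710+, MM9LINCRNAEXON10657+ and MM9LINCRNAEXON10176- had control signals of 12.7 each, and 18.9, 20.7 and 15.3 on the I/R array. The probes on either side of the limit therefore differed by less than their spot errors on the control array. Of the regions just outside, MM9LINCRNAEXON10710 was left out by this probe alone, as its opposite strand had a control signal of 8.45. The opposite strands of MM9LINCRNAEXON10657 and MM9LINCRNAEXON10176 had 30.2 and 32.9, so those regions were not silent in any case.

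Of the 482 probes, 28 (5.81%) in 27 regions had the flag on the I/R array. Among all 18228 control-silent spots other than negative-sequence spots, 6.27% had the flag on the I/R array, so the share of the silent lincRNA exons was close to that of any dim probe. By strand, 15 of the 241 probes for the + strand and 13 of the 241 for the - strand were detected. In 26 of the 27 regions a single strand was detected, and in 1 region, MM9LINCRNAEXON11639, both were. Among other regions that gained detection, both strands did so in 1 of 14 ultraconserved regions, 0 of 14 human and 0 of 3 mouse lincRNA loci. The single strands are therefore not read as a trait of the lincRNA exons. The remaining 214 regions were silent on both arrays.

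**Figure D1:**
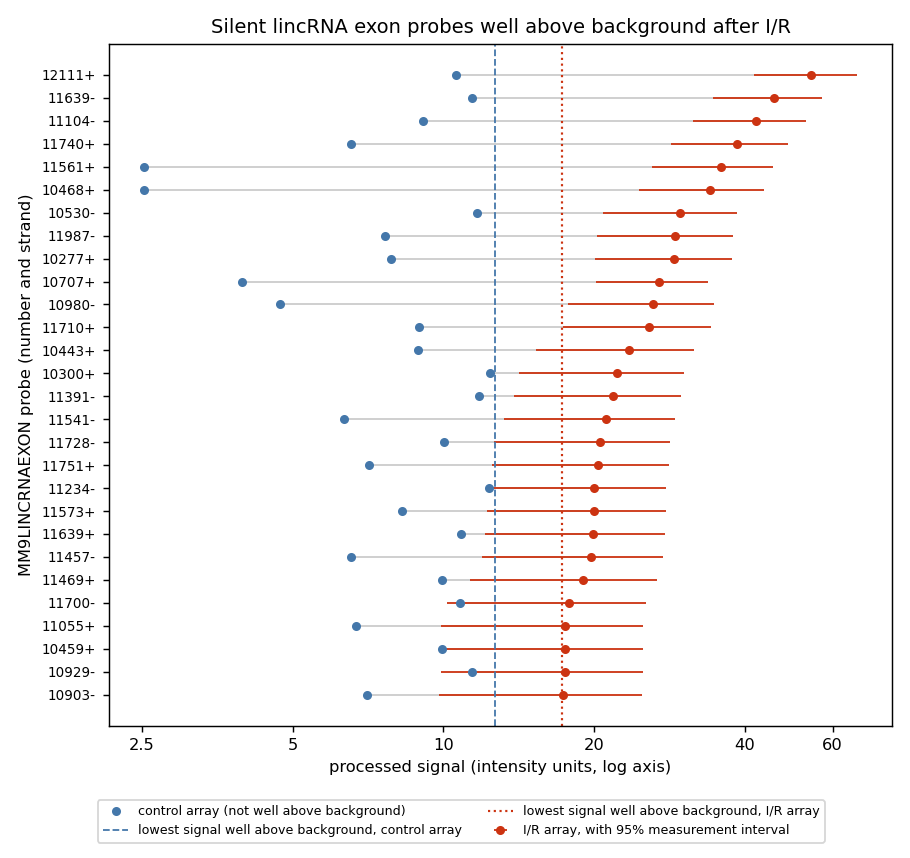
Processed signals (log axis, intensity units) of the 28 probes detected on the I/R array, with the control array in blue and the I/R array in red with its 95% measurement interval. Every control signal lies left of the dashed limit by the choice of regions; the I/R signals run from 17.4 to 54.4, and 12 intervals lie wholly above the dotted I/R limit.

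The brightest of the 28 probes was MM9LINCRNAEXON12111+, with a signal of 10.6 on the control array and 54.4 on the I/R array (95% measurement interval 41.8 to 67.0, from the error the scanner software gives for the spot). Since the control signal was not well above background, its rise is given as a lower bound, the normalized I/R signal over the lowest normalized control signal well above background, which was 12.5. The bound, and each "at least" here and below, is taken from the signals alone and leaves out their measurement error. MM9LINCRNAEXON12111+ was at least 4.37-fold higher on the I/R array by this bound, while the probe for its opposite strand was at the floor on both arrays. It was the only silent exon probe past a bound of 4-fold after quantile normalization. An array-wide share for this bound was not computed, and 4 negative-sequence spots that gained the flag were brighter than this probe. With normexp background correction, which adds an offset of 50 to every signal, the bound was 1.57-fold, and over the 28 probes it ran from 1.04-fold to 1.57-fold with a median of 1.22-fold, so the sizes given here hold for quantile normalization of the processed signals. Its I/R signal was above that of 54.6% of the non-control spots with negative-sequence spots left out.

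MM9LINCRNAEXON11639, the region detected on both strands, had control signals of 11.4 on the - strand and 10.8 on the + strand. After I/R the - strand probe reached 45.8 (34.5 to 57.0), at least 3.68-fold higher. The + strand probe reached 19.96 (12.1 to 27.8), with a bound of 1.62-fold. Its interval reached below the limits of both arrays and overlapped that of its control signal, so this rise did not exceed measurement error. The signals belong to different probes, so they do not rank the strands by abundance.

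Beyond these, 2 probes passed a bound of 3-fold, for which no array-wide share was computed either. MM9LINCRNAEXON11104- went from 9.09 to 42.2 (31.5 to 52.9), at least 3.39-fold, and its opposite strand from 10.3 to 10.98. MM9LINCRNAEXON11740+ went from 6.54 to 38.7 (28.5 to 48.8), at least 3.10-fold, and its opposite strand was at the floor on the control array. In both regions the opposite strand was positive on the I/R array but below the limit.

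The 2 detected probes that started from the floor came next. MM9LINCRNAEXON11561+ reached 35.9 (26.1 to 45.6) on the I/R array, at least 2.89-fold above the control limit. MM9LINCRNAEXON10468+ reached 34.2 (24.7 to 43.7), at least 2.76-fold. All other detected probes, 26 of the 28, had been positive and significant on the control array. The interval of MM9LINCRNAEXON12111+ overlapped those of the 5 probes that followed it, from MM9LINCRNAEXON11639- to MM9LINCRNAEXON10468+, and signals of different probes do not rank their transcripts.

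A further 6 probes had a bound of at least 2-fold and an interval above the I/R limit. MM9LINCRNAEXON10530- went from 11.7 to 29.7 and MM9LINCRNAEXON11987- from 7.65 to 29.1, at least 2.40-fold and 2.35-fold. MM9LINCRNAEXON10277+ went from 7.85 to 28.9, at least 2.33-fold. MM9LINCRNAEXON10707+ went from 3.96 to 27.0 and MM9LINCRNAEXON10980- from 4.72 to 26.3, at least 2.18-fold and 2.12-fold. These last probes had the lowest control signals above the floor among the 28. MM9LINCRNAEXON11710+ went from 8.94 to 25.8, at least 2.08-fold. In all, 12 of the 28 probes passed a bound of 2-fold, and in each of the 12 the interval of the I/R signal lay above the I/R limit. An array-wide share for this bound was not computed. Of these 6 regions, 5 had their opposite strand at the floor on both arrays, and that of MM9LINCRNAEXON10530 went from 9.80 to 11.1.

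The other detected probes lay close to the limit. MM9LINCRNAEXON10443+ reached 23.5 from 8.91, and MM9LINCRNAEXON10300+ reached 22.2 from 12.4. MM9LINCRNAEXON11391- and MM9LINCRNAEXON11541- reached 21.9 and 21.2, the former from 11.8 and the latter from 6.34. Their bounds were 1.90-fold, 1.80-fold, 1.77-fold and 1.71-fold, each with an interval that reached below the I/R limit. For MM9LINCRNAEXON10300+ and MM9LINCRNAEXON11391- the intervals of the arrays overlapped, so their rises did not exceed measurement error. MM9LINCRNAEXON11728- (20.5), MM9LINCRNAEXON11751+ (20.4), MM9LINCRNAEXON11234- (20.04) and MM9LINCRNAEXON11573+ (20.03) had bounds from 1.62-fold to 1.66-fold. Of these, only MM9LINCRNAEXON11751+ had an I/R signal above its control signal by measurement error. The - strand of MM9LINCRNAEXON11751 went from a signal of 12.6, the highest of any silent exon on the control array, to 6.78. That strand was well above background on neither array, and its lower signal was not compared with measurement error. The dimmest of the detected probes were MM9LINCRNAEXON10459+ (17.5), MM9LINCRNAEXON10929- (17.5) and MM9LINCRNAEXON10903- (17.4), whose bounds of 1.41-fold to 1.42-fold come almost wholly from the difference between the limits of the arrays.

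Over the 28 detected probes the I/R signal had a lowest value of 17.4, a median of 22.1 and a highest of 54.4, and the control signal a median of 8.93. The bound ran from 1.41-fold to 4.37-fold with a median of 1.78-fold. Every control signal was below the control limit, so each bound divides the normalized I/R signal by the same 12.5. The lowest normalized I/R signal with the flag was 17.5, so the low end of this range was set by the limits of the arrays. A bound of at least 1.5-fold was passed by 23 probes (4.77% of the 482) in 22 regions. The same bound was passed by 5.44% of all control-silent probes, so here too the silent exons stood near the background share. With the measurement intervals of both arrays compared, the signal on the I/R array exceeded that on the control array for 16 of the 28 probes, and for the other 12 the intervals overlapped. No array-wide share was computed for this comparison or for bounds above 1.5-fold. Those counts therefore cannot be set against the background of the array.

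**Figure D2:**
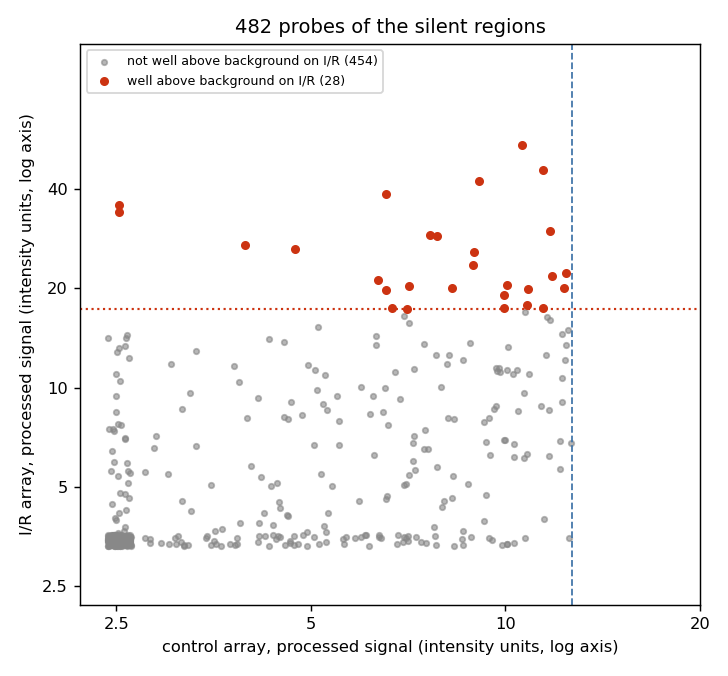
Processed signal of each of the 482 probes of the silent regions on the control array (x) and on the I/R array (y), both log axes in intensity units, with points at a floor spread slightly for display. The 28 red points lie above the dotted I/R limit, most of them at control signals over 5, while 199 probes sit at the floor of both arrays in the lower left corner.

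The arrays hold 20 negative-sequence probes, named MM9NEGATIVE, with 1200 spots, which by their name serve as spots without a mouse target. Of their 928 spots silent on the control array, 29 (3.12%, exact binomial 95% interval 2.10% to 4.46%) gained the flag on the I/R array. The share of the silent exon probes, 5.81% (3.89% to 8.29%), was 1.86 times as high, with intervals that overlapped. This ratio mixes unlike control signals, since 603 of the 928 spots were at the control floor, against 237 of the 482 exon probes. At the floor and from there to 5 the exon share was the lower, and in the ranges above 5 the higher, as given below. The intervals cover counting error only, and the spots of a negative-sequence probe share its sequence. A single probe, MM9NEGATIVE012, gave 10 of the 29 spots. Without it, a setting chosen with the values in view, the share was 2.19% (1.32% to 3.39%). Leaving out the probe with the most such spots lowers the share by construction. That this interval lies below that of the exon probes is therefore not read as a difference. The 29 negative-sequence spots had a median I/R signal of 21.4 and a highest of 132, against 22.1 and 54.4 for the 28 exon probes. Of the 29, 4 were brighter than MM9LINCRNAEXON12111+. Among all 1200 negative-sequence spots the 95th percentile on the I/R array was 52.8, and MM9LINCRNAEXON12111+ was the only silent exon probe above it. The negative-sequence probes are themselves uneven, since 6 of the 20 had a median control signal above the control limit.

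**Figure D3:**
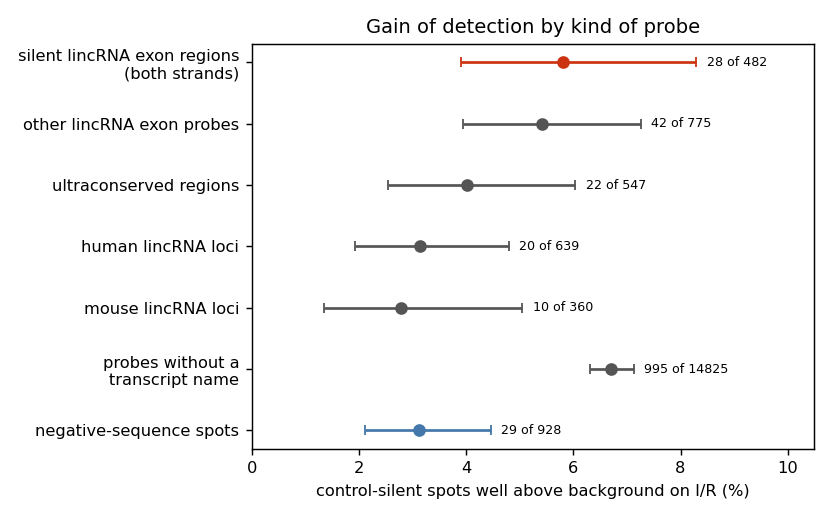
Share of control-silent spots detected on the I/R array (%), by kind of probe, with exact binomial 95% intervals and the counts printed at the right. The silent lincRNA exon regions (28 of 482) lie between the negative-sequence spots (29 of 928) and the probes without a transcript name (995 of 14825), and their interval overlaps all the others.

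Among other kinds of probe that were silent on the control array, the shares detected on the I/R array were similar or lower. They were 5.42% of 775 lincRNA exon probes in the other regions, 4.02% of 547 probes for ultraconserved regions, 3.13% of 639 for human lincRNA loci and 2.78% of 360 for mouse lincRNA loci. Of 14825 probes without a transcript name in the files it was 6.71%. The 95% interval of the silent exon probes, 3.89% to 8.29%, overlapped that of each of these kinds. An exon probe whose partner strand was well above background on the control array gained detection in 5.42% of cases. The share was 5.81% where the partner strand was silent, with intervals that overlapped.

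The share detected after I/R varied with the signal on the control array. Of the silent exon probes at the control floor, 2 of 237 (0.844%) were detected, and of those above the floor but under 5, 2 of 82 (2.44%). The share was 6 of 71 (8.45%) from 5 to 7.5 and 8 of 49 (16.3%) from 7.5 to 10. From 10 to the limit it was 10 of 43 (23.3%). Over all control-silent spots other than negative-sequence spots, the shares in the same ranges were 2.56%, 4.20%, 7.31%, 10.3% and 18.3%, and for the negative-sequence spots they were 2.16%, 3.33%, 3.90%, 4.08% and 12.2%. The probes nearest the control limit were those most often detected in all 3 sets. No region with both strands at the control floor gained detection, 0 of 56, and 16 of these 56 had a strand positive and significant on the I/R array by the weaker flag. Among negative-sequence spots not positive on the control array, 13.6% of 603 gained the weaker flag, counted by spot. Shares by pair were not computed for floor spots of other kinds, so neither count is read as a trait of these regions.

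**Figure D4:**
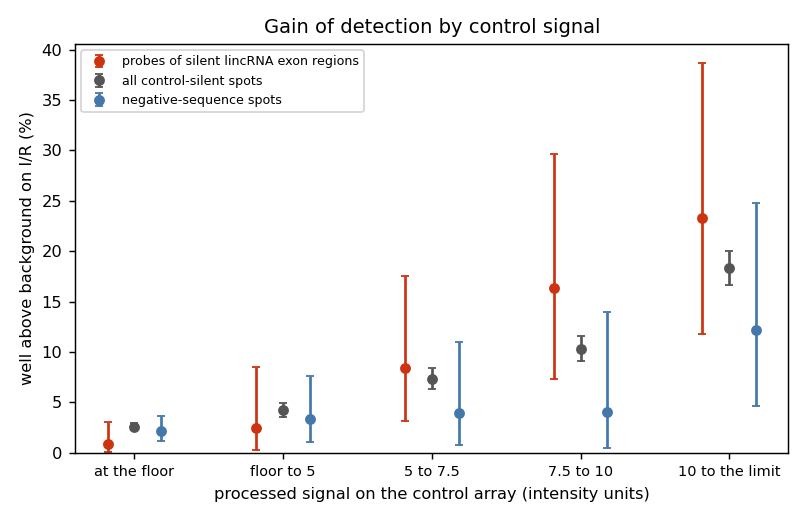
Share of spots detected on the I/R array (%), against the processed signal on the control array in 5 ranges, for the silent lincRNA exon probes (red), all control-silent spots other than negative-sequence spots (grey) and negative-sequence spots (blue), with exact binomial 95% intervals. The share of the exon probes goes from 0.844% at the floor to 23.3% next to the limit, and its interval overlaps that of the negative-sequence spots in every range.

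By the weaker flag, fewer silent exon probes were positive after I/R than before. Of the 245 positive on the control array 167 stayed positive on the I/R array and 78 did not, while 38 were positive on the I/R array only. As shares of the 482 these were 16.2% lost and 7.88% gained, beside 19.4% and 8.91% of all control-silent spots and 17.6% and 8.84% of the negative-sequence spots, so the change of this flag was near the background. The noise of the I/R array was higher, as its floor and limit show, and its part in this difference was not tested. In the 454 probes well above background on neither array, 141 lay above the floor of both. For these the normalized log2 signal was higher on the I/R array for 94 and lower for 47, with a median difference of 0.25 and a range from -1.36 to 1.95. Over all 5599 such dim probes the median difference was 0.23, and how many of them were higher was not counted. The choice allows higher signals on the I/R array, since the normalized limit was 12.5 on the control array and 17.5 on the I/R array. Without normalization the median difference was 0.12. The parts of the choice and of the normalization in the 94 higher and 47 lower values were not tested. For the opposite strands of the 26 regions detected on a single strand, 18 were at the floor on the I/R array and 8 were positive without reaching the limit. Of all 482 silent exon probes, 277 were at the floor on the I/R array.

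The same choice was then made with the arrays exchanged. Of the 1728 regions, 338 (19.6%) were silent on the I/R array, and 124 of these (36.7%) had a strand well above background on the control array, against 27 of 241 (11.2%) in the other direction. More lincRNA exon regions thus passed below the limit than above it. By probe, 143 of 676 (21.2%) in the regions silent on the I/R array had the flag on the control array, beside 20% of all spots silent on the I/R array and 12.6% of the negative-sequence spots. Over all 3457 lincRNA exon probes, 63.6% were well above background on the control array and 56.9% on the I/R array. Over all non-control spots without the negative-sequence spots the shares were 69.6% and 64.4%, and for negative-sequence spots 22.7% and 14.2%, so fewer detected spots on the I/R array were seen array-wide. The gap between the directions was narrower when a single limit served both arrays, which is a setting added with the values in view. With the control limit on both, 49 of 241 regions (20.3%) gained detection and 71 of 263 (27.0%) lost it, and with the I/R limit on both, 48 of 308 (15.6%) gained it and 78 of 338 (23.1%) lost it.

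**Figure D5:**
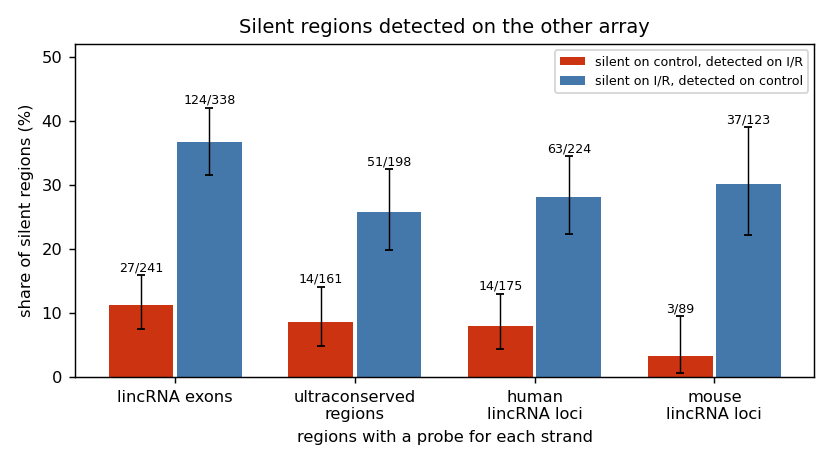
Share of silent regions (%) with a probe well above background on the other array, for 4 kinds of region with a probe for each strand, with counts and exact binomial 95% intervals. Red bars are regions silent on the control array and blue bars regions silent on the I/R array; in all 4 kinds the blue bar is the higher, 36.7% against 11.2% for the lincRNA exons.

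Other regions with a probe for each strand gave the same order. Of ultraconserved regions, 161 of 481 were silent on the control array and 14 of these (8.70%) were detected after I/R. For human lincRNA loci the numbers were 175 of 608 and 14 (8.0%), and for mouse lincRNA loci 89 of 340 and 3 (3.37%, exact binomial 95% interval 0.701% to 9.54%). The share of the lincRNA exons, 11.2% (7.51% to 15.9%), was the highest of the 4, with an interval that overlapped each of the others. Silence itself was less frequent among the lincRNA exons, at 13.9% of regions against 33.5% of ultraconserved regions, 28.8% of human and 26.2% of mouse lincRNA loci.

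The local background around the spots was also read. Its median was 31.0 on the control array and 33.5 on the I/R array for the 28 detected probes, and 30.0 and 34.0 for all 482 silent exon probes. Over the non-control spots it was 30.0 and 33.0. Single detected probes stood in brighter surroundings on the I/R array, up to 38.0 for MM9LINCRNAEXON11561+, and the part of the local background in their detection was not tested.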

How the data were processed

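Liver RNA of 1 control and 1 I/R sample was measured on 1 array each. Agilent Feature Extraction 11.0.1.1 served the authors for image extraction. Each deposited intensity is a background-subtracted processed signal, and its spot error was deposited beside it. Other deposited columns are flags and scores of detection, saturation and outliers. The value table of the series holds the same intensities for all 62513 spots (within a relative tolerance of 1e-05).

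Counts of regions used the flags. For bounds, control, outlier-flagged and negative-sequence spots were left out, repeated spots were averaged on the log2 scale, and 59692 probes were quantile-normalized, as the study's methods name, in R 4.3.3 (limma 3.58.1). Python 3.11.15 with pandas 2.3.3 and scipy 1.17.1 served for the rest. A bound sets the I/R signal against the higher of the lowest normalized control signal well above background and the probe's own. Spot errors do not enter it. Measurement intervals are 1.96 spot errors on each side. With 1 array per condition no test was run, and no precision between mice can be given. The script that computes the bound was checked on simulated signals of known fold. Those folds were larger than most bounds given here and the noise was smaller than the spot errors. The check therefore does not cover the range in which most bounds lie. The probes named were the 20 with the highest bound, the region detected on both strands, the 3 dimmest detected and 3 on each side of the limit. The members, marker lists and rules were chosen with earlier results of these data known. Alternatives were other flags, limits, normalizations and normexp with an offset of 50, run on median signals.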

Additional observations from a re-analysis of the deposited data

How the results depend on the processing

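Dim signals limit every count here. Against 27 of 241 regions (11.2%) detected on the I/R array, the positive and significant flag gave 16 of 56 (28.6%). It served there for both silence and detection, so the share rose while the count fell. The number of regions was 16 with an I/R signal above the control signal by measurement error. It was 1 above the 95th percentile of the negative-sequence spots, and 0 above the highest of them (265). It was also 0 with neither strand positive on the control array. Leaving out outlier-flagged spots gave 27. Chosen after seeing the data, the control limit on both arrays gave 49 and the I/R limit on both gave 48. The exchanged count of 124 of 338 was 40 of 80 with the positive and significant flag, again a higher share. It was 71 of 263 with the control limit and 78 of 338 with the I/R limit. Against 22 regions with a bound of at least 1.5-fold, normexp gave 4, a threshold of 2-fold 12 and of 4-fold 1. The 75th percentile, no normalization, cyclic loess and the own control signal gave 21 to 27. Normexp adds an offset, which shrinks the folds of dim probes by construction. The 28 bounds ran from 1.04-fold to 1.57-fold with normexp (4.37-fold to 1.57-fold for MM9LINCRNAEXON12111+ and 3.68-fold to 1.51-fold for MM9LINCRNAEXON11639-), from 1.36-fold to 4.27-fold with the 75th percentile and from 1.48-fold to 4.91-fold with cyclic loess. Without normalization or with quantiles, a bound above 1 follows from the higher limit of the I/R array. The median difference of dim probes, 0.25, was 0.11 with the 75th percentile or cyclic loess and 0.12 without normalization. The negative-sequence share, 3.12%, was 13.6% of 603 spots with the positive and significant flag and 0% of 18 probes when spots were averaged. It was 2.19% without MM9NEGATIVE012, which was left out after seeing the data and lowers the share by construction. Where no construction is named, the cause was not tested. No paired analysis was possible because each condition was hybridized to a single array, which also leaves no replicate to leave out.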
